A study of Homo sapiens with 6 samples.

Results

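Excitation-contraction coupling was examined through 10 genes, CACNA1S, CACNB1, CACNG1, STAC3, JPH1, JPH2, TRDN, RYR1, CASQ2 and ATP2A1, in maps of open chromatin from RH30 cells. Overlapping peaks of 6 libraries were merged into 105569 regions, and the regions of a gene were those whose highest summit lay in the gene body or within 50 kb of it (hg38, GENCODE version 44). This gave 145 regions for the 10 genes, of which 83 (57.2%) were called in all 6 libraries, against 47885 (45.4%) of all regions. RH30 is a fusion-positive rhabdomyosarcoma line. ATAC-seq, in which a transposase inserts sequencing adapters into accessible DNA, was performed on 3 vector libraries, from cells given Cas9 and a scramble guide, and on 3 MyoD-deleted libraries, from cells given Cas9 and a guide against MyoD, the transcription factor that drives skeletal myogenesis. The sample labels and the methods name the cells RH30, whereas the text of the study names both RH30 and RH30-SR, a derivative with an NF-κB inhibitor, and no source states whether the ATAC-seq cells were an infected pool or a clone. The comparison asks where open chromatin at these genes differed between cells with and without MyoD.

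In skeletal muscle, a depolarization of the T tubule is sensed by the voltage-gated channel CaV1.1, which is coupled physically to the ryanodine receptor RyR1 of the sarcoplasmic reticulum. Calcium leaves the store through RyR1, triggers contraction and is pumped back by the SERCA1 ATPase. Junctophilins hold the T tubule and the store together, and triadin and calsequestrins keep calcium close to the release channel.

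The label of the cells was checked at marker genes. A region covered the 5′ end of 7 of 7 rhabdomyosarcoma and myogenic genes (MYOD1, MYOG, DES, FGFR4, CHRNA1, CDH15 and PAX3) in all 6 libraries. None of 3 blood genes had such a region in any library. Of the epithelial and endothelial genes, EPCAM had one in 5 libraries and TIE1 in 3, and the other 4 had none. The neural genes SNAP25 and SYT1 had one in all 6. An open 5′ end of MYOD1 does not check the deletion, since peak lists hold no transcript or allele. The 6 libraries held 63140 to 80608 peaks. Their read totals are unknown, and the smallest local background, which follows depth, was 2.22 to 3.41 per library.

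Each region was described in each library by 2 measures. Its rank is the percentile of its fold enrichment over the local background among the 47885 regions called in every library. Its height is log2 of the pileup at the summit over the smallest background of the library, centred on the median region. The pileup is the number of overlapping tags. Tags here stand for reads or fragments, since the sources do not state which were counted. The height is not divided by the background around the region, so the measures differ where that background changes. Both were compared with limma over all 47885 regions, with Benjamini-Hochberg adjustment and a threshold of 0.05. The p-values measure the spread between 3 libraries per group, which the labels call biological replicates.

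Over the 10 genes together, height calls were about as frequent as among all regions. Vector libraries called 108, 102 and 99 of the 145 regions, and MyoD-deleted libraries called 103, 108 and 114. These were 68.3% to 74.5% and 71.0% to 78.6%, beside 59.1% to 69.9% and 69.1% to 75.2% of all regions. Of the 145, 3 were gained, called in all MyoD-deleted and in no vector libraries (2.07%, against 4.56% of all regions). None was lost, called in all vector and in no MyoD-deleted libraries, whereas 1.78% of all regions were. By rank, 6 of the 83 regions were higher in MyoD-deleted libraries (7.23%, against 4.12% of all regions) and 1 was lower (1.20%, against 4.67%). By height, 10 were higher (12.0%, against 11.4%) and 12 were lower (14.5%, against 12.8%). Without centring of the height the split was 20 higher (24.1%, against 24.7%) and 8 lower (9.64%, against 8.03%). The median change in centred height was −0.03 over the 83 regions and 0.04 over all regions.

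Regions in the gene bodies and around them were then taken apart. This split was made after the values were seen, so it is a description, and the difference between them was not tested. With the summit in the gene body, 8 of 24 regions were lower by height (33.3%, against 12.6% of all regions in protein-coding gene bodies) and 1 was higher (4.17%, against 10.9%), and the median change was −0.22. The rank did not show this lowering: none of the 24 was lower (against 4.67% of all regions) and 1 was higher (4.17%, against 4.12%). Without centring of the height, 6 of the 24 were lower (against 8.03% of all regions) and 3 were higher (against 24.7%), with a median of −0.03. Outside the bodies, 4 of 59 were lower by height (6.78%, against 12.8% of all regions) and 9 were higher (15.3%, against 11.4%), with a median of 0.07. By rank, 1 of the 59 was lower (1.69%) and 5 were higher (8.47%). Without centring, 2 were lower (3.39%) and 17 higher (28.8%). The shares of all regions include regions in gene bodies, so the 2 sides of the split have unlike comparisons by height. Of the 145 regions, 91 were nearer to the 5′ end of another protein-coding gene, among them 7 of the 22 with a height call. In 13 of the 22 height calls, and in 2 of the 7 rank calls, the call was kept whichever library was left out.

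**Figure D1:**
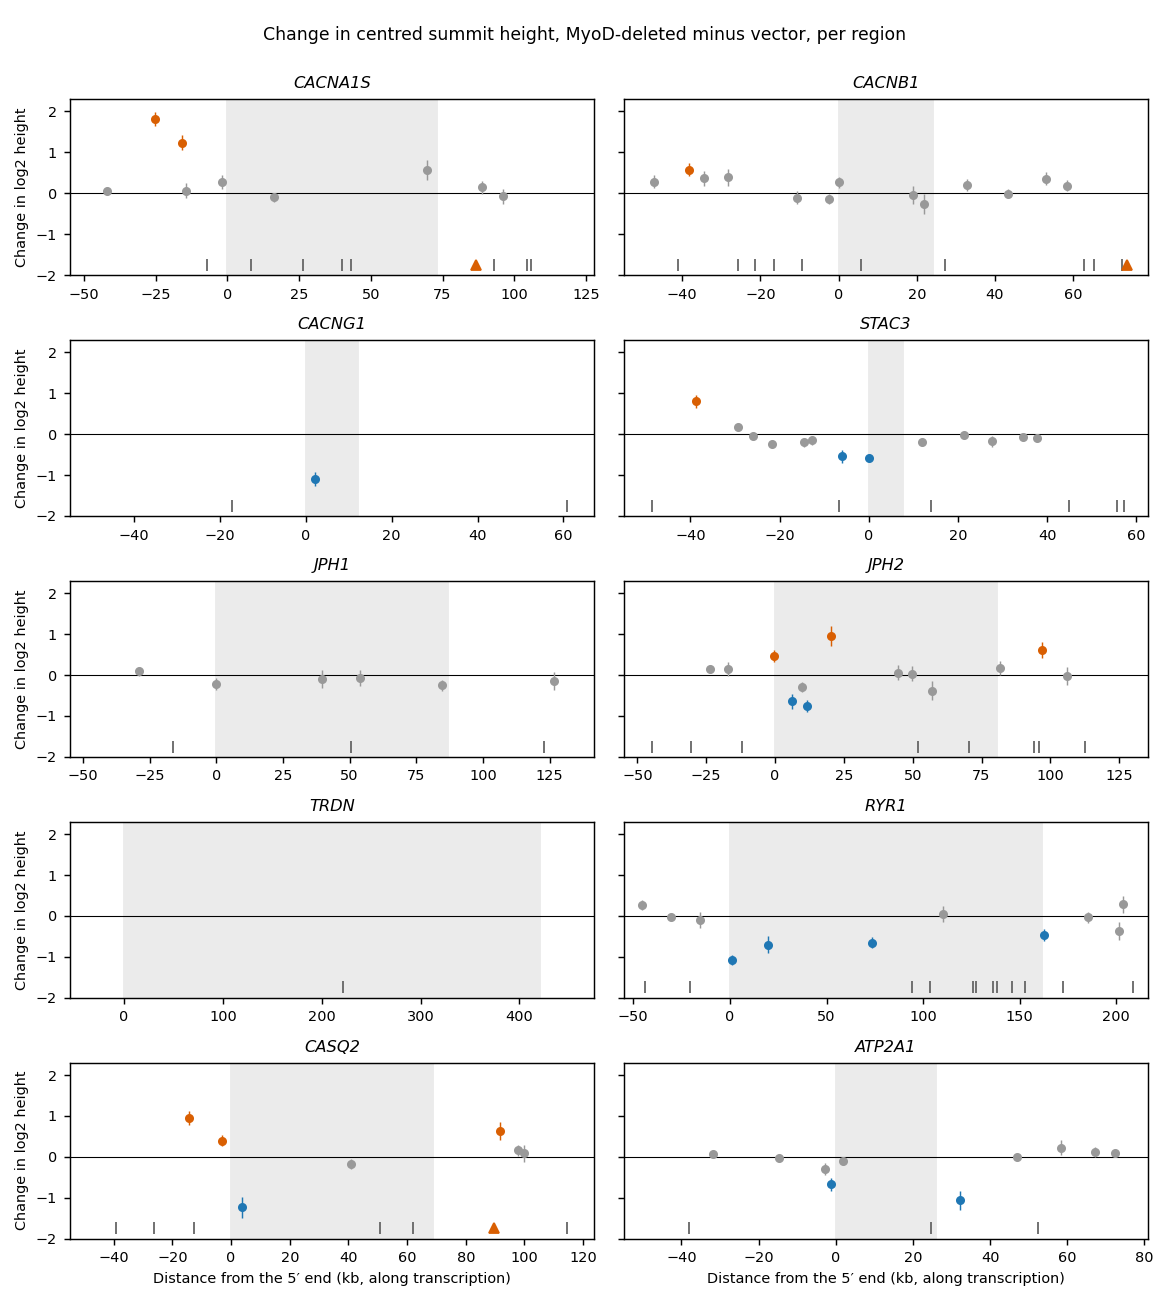
Change in centred log2 summit height (MyoD-deleted minus vector, ± SE) of each region called in all 6 libraries against the distance of its summit from the 5′ end of the gene in kb. The grey band is the gene body, orange and blue points were called higher and lower, grey points were not called, ticks at the bottom are regions not called in every library and orange triangles are the 3 gained regions; 8 of the 12 blue points lie in gene bodies.

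**Figure D2:**
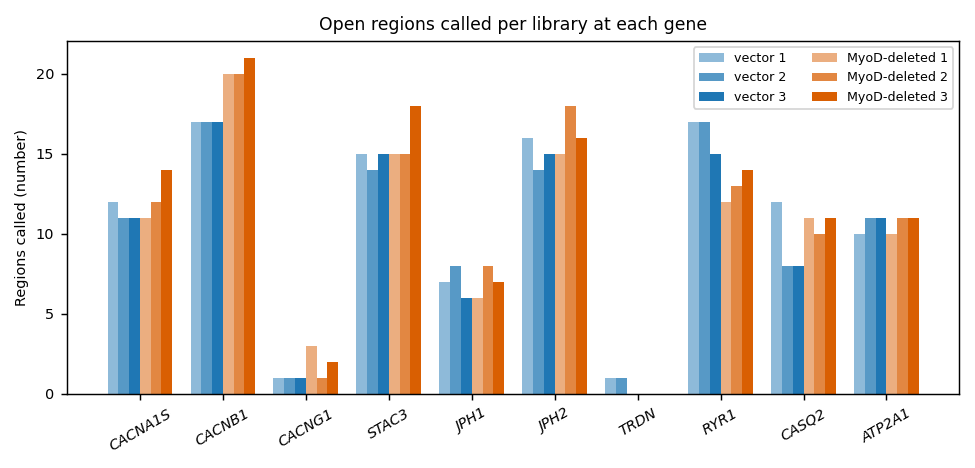
Number of open regions called at each gene in each library (blue, vector; orange, MyoD-deleted; replicates 1 to 3 from pale to dark). RYR1 had 15 to 17 in vector and 12 to 14 in MyoD-deleted libraries, CACNB1 17 in each vector and 20 or 21 in MyoD-deleted libraries, and TRDN at most 1. Of all regions, vector libraries called 59.1% to 69.9% and MyoD-deleted libraries 69.1% to 75.2%, so more calls in MyoD-deleted libraries were general.

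The sequences below hold the summit base and 50 bases on each side of it, for some of the regions named in the results (hg38, plus strand). The first 3 are the most strongly lowered regions by height of CACNG1, RYR1 and CASQ2, the fourth is the most strongly raised region of CASQ2, and the last 2 are gained regions. Capitals mark motifs of the kinds searched: CAGCTG and CAGGTG (E boxes, bound by MyoD among other factors), TGACTCA or TGAGTCA (AP-1) and CATTCC or its reverse complement GGAATG (TEAD). The RYR1 stretch holds none of them. Stretches of other regions are not shown. Among them, that of the gained region of CACNB1 holds CAGCTG. Those of CACNA1S region 2, of JPH2 regions 9 and 10 and of ATP2A1 region 8 hold none of the motifs.
CACNG1 region 2, chr17:67046529-67046629: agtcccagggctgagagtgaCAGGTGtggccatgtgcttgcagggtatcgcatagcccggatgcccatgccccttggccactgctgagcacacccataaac
RYR1 region 6, chr19:38434750-38434850: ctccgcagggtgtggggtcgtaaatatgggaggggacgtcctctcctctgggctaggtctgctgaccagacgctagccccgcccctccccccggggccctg
CASQ2 region 6, chr1:115765187-115765287: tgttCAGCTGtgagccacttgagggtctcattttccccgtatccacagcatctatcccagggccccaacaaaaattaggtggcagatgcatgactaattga
CASQ2 region 3, chr1:115783036-115783136: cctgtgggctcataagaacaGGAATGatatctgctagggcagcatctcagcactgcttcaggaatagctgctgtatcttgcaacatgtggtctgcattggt
CACNA1S region 13, chr1:201025748-201025848: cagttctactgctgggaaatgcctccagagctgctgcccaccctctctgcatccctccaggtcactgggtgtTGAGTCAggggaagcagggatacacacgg
CASQ2 region 10, chr1:115679210-115679310: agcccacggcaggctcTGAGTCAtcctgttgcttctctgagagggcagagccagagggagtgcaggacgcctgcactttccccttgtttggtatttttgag

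CACNA1S encodes the pore and voltage sensor of CaV1.1. None of its 18 regions covered its 5′ end, and 9 were called in every library. Regions are numbered along the direction of transcription. Region 2 (chr1:201137343-201138442), 25.4 kb upstream of CACNA1S and 10.6 kb from the 5′ end of ASCL5, had pileups of 59, 26 and 46 in vector and 115, 161 and 146 in MyoD-deleted libraries. Every MyoD-deleted library was higher than every vector library. Its height rose by 1.82 on the log2 scale (SE 0.18, limma adjusted p = 1.77e-06), and its rank rose from the percentiles 27.0, 19.0 and 37.8 to 75.1, 78.2 and 76.0 (adjusted p = 0.0043).

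Region 3 (chr1:201127827-201128717), 15.9 kb upstream and 1.14 kb from the 5′ end of ASCL5, rose by 1.24 in height (SE 0.19, adjusted p = 0.000145). Its percentiles were 5.28, 4.36 and 0.701 in vector and 33.4, 18.6 and 27.0 in MyoD-deleted libraries (adjusted p = 0.0162). That rank call was lost without vector replicate 3 (adjusted p = 0.0509) and without MyoD-deleted replicate 1 (adjusted p = 0.0574). Both raised regions thus lie closer to ASCL5 than to CACNA1S.

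Within the body of CACNA1S, the region with the highest fold enrichment lay in intron 2 (chr1:201095638-201096795), with pileups of 238, 183 and 222 against 187, 204 and 180. The groups overlapped, and its height differed by −0.10 (SE 0.11, adjusted p = 0.585). Region 13 (chr1:201025620-201026031), 2.08 kb from the 5′ end of KIF21B, was gained, with pileups of 32, 38 and 28 in the MyoD-deleted libraries. The median local background at the 9 regions, as a multiple of the smallest of the library, was 3.16 to 3.39 in vector and 4.37 to 4.72 in MyoD-deleted libraries. Its part in the height changes was not tested.

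CACNB1 encodes the β1 subunit, which brings CaV1.1 to the T tubule. Its 5′ end was covered by region 12 (chr17:39196310-39198163), with pileups of 199, 122 and 211 against 181, 211 and 204. The groups overlapped on both measures, with a height difference of 0.27 (SE 0.13, adjusted p = 0.145) and a rank p of 0.374 after adjustment. Leaving out vector replicate 3 gave 0.43 (adjusted p = 0.0175), and the height without centring gave 0.46 (adjusted p = 0.0125). None of its 13 shared regions was called by rank. Without centring of the height, 7 of the 13 were higher (against 24.7% of all regions) and 0 were lower (against 8.03%). With centring, 1 was higher (against 11.4% of all regions) and 0 were lower (against 12.8%). The 1 called was region 3 (chr17:39235594-39236291), 9.93 kb from the 5′ end of STAC2, at 0.57 (SE 0.16, adjusted p = 0.0154). The highest adjusted p on leaving out 1 library was 0.088, without vector replicate 2, and the call was also lost without MyoD-deleted replicate 1 or 3. A gained region lay 30.5 kb from the 5′ end of PLXDC1 (chr17:39123673-39124244), with pileups of 14, 12 and 18.

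CACNG1 encodes the γ1 subunit of CaV1.1. It had 3 regions, of which 1 was called in every library, in intron 1 and 2.02 kb from the 5′ end (chr17:67046149-67046974). The pileups were 83, 61 and 83 in vector and 32, 31 and 37 in MyoD-deleted libraries, and the groups did not overlap. The height fell by 1.11 (SE 0.17, adjusted p = 0.000161), and the call was kept whichever library was left out. Both E box forms occur within 100 bp of the summit. The local background there was 2.21 to 2.47 times the smallest of the library in vector and 1.13 to 1.17 times in MyoD-deleted libraries. The fold enrichment, a ratio to that background, was therefore 8.92, 10.5 and 11.0 against 9.28, 8.85 and 10.1, and the rank was not called (adjusted p = 0.235). The other 2 regions held peaks of 10 to 15 tags, in at most 2 MyoD-deleted libraries and in no vector library.

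STAC3 encodes an adaptor that CaV1.1 needs for its surface delivery and its coupling to RyR1. Its 5′ end lay in region 10 (chr12:57250429-57251719), with the summit in exon 1, where pileups were 1363, 1130 and 1261 in vector and 735, 743 and 918 in MyoD-deleted libraries. The groups did not overlap, and the height fell by 0.58 (SE 0.09, adjusted p = 0.000172). The percentile of the fold enrichment moved from 81.1 ± 1.47 to 71.5 ± 1.01 (SD, n = 3 each), and the rank was not called (adjusted p = 0.162). The background around STAC3 was far above that at other genes, with medians over its regions of 31.9 to 39.3 times the smallest in vector and 26.1 to 31.4 times in MyoD-deleted libraries, against 2.46 to 2.64 over all regions. Of the 13 shared regions of STAC3, 11 differed by less than 0 in height, as did 45.2% of all regions. The lists hold no measure of copy number, and the part of the background in the height change was not tested.

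Region 2 of STAC3 (chr12:57289387-57290440), 38.7 kb upstream, rose instead, with pileups of 65, 39 and 43 against 73, 76 and 90. Its height rose by 0.80 (SE 0.16, adjusted p = 0.00128) and its rank rose as well (adjusted p = 0.01), both without overlap of the groups. It remained among the weaker peaks of each library, at percentiles of at most 16.3. Region 9, 5.95 kb upstream, was lower by 0.55 (SE 0.17, adjusted p = 0.0246). Without centring the difference was −0.35 (adjusted p = 0.134), and the call was also lost without vector replicate 2 or 3 or MyoD-deleted replicate 1 or 2 (adjusted p up to 0.13).

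**Figure D3:**
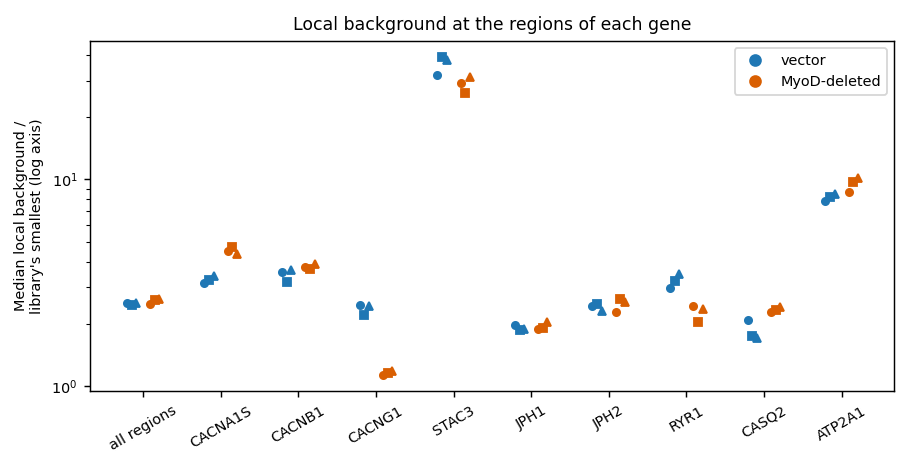
Median local background over the regions of each gene called in every library, as a multiple of the smallest background of that library (log axis; circles, squares and triangles are replicates 1, 2 and 3). STAC3 stands at 26.1 to 39.3 and ATP2A1 at 7.85 to 10.2, and CACNG1 and RYR1 are lower in MyoD-deleted libraries.

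Among the proteins of the junction, JPH1, the junctophilin of skeletal muscle, showed no called region. Its 5′ end (chr8:74320490-74322142) had pileups of 148, 103 and 124 against 89, 131 and 89, and the groups overlapped (difference −0.22, SE 0.15, adjusted p = 0.307). The strongest body region, in exon 6, had pileups of 143, 100 and 113 against 94, 86 and 103 (−0.25, SE 0.13, adjusted p = 0.182). The 6 shared regions differed by −0.25 to 0.09 in height, 5 of them below 0, with the smallest adjusted p at 0.182 by height and 0.0866 by rank.

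JPH2, a junctophilin of heart and skeletal muscle, had regions that moved in opposite directions inside its intron 1. Region 9 (chr20:44175205-44175969), 11.6 kb into the gene, had pileups of 140, 82 and 106 in vector and 55, 65 and 61 in MyoD-deleted libraries and fell by 0.76 (SE 0.14, adjusted p = 0.000716). Region 10 (chr20:44166196-44166979), 20.5 kb into the gene, had pileups of 19, 11 and 18 against 27, 37 and 24 and rose by 0.96 (SE 0.24, adjusted p = 0.00628). Neither pair of groups overlapped, and both height calls were kept whichever library was left out.

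The rank of region 10 rose from the percentiles 5.23, 3.69 and 14.1 to 35.2, 48.3 and 18.7 (adjusted p = 0.0373). This call was lost without vector replicate 1 or 2 or MyoD-deleted replicate 1 or 2, with adjusted p up to 0.141. The rank of region 9 was not called, with percentiles of 24.3, 26.0 and 27.6 against 13.1, 11.8 and 8.40 (adjusted p = 0.0712). Between the 5′ end and region 9, region 8 held the highest fold enrichment of the gene body, with pileups of 185, 114 and 144 against 93, 132 and 117, and a difference of −0.29 (SE 0.12, adjusted p = 0.1).

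The 5′ end of JPH2 (region 6, chr20:44186908-44188304) was higher in MyoD-deleted libraries, by 0.47 (SE 0.14, adjusted p = 0.0213), with pileups of 110, 58 and 87 against 96, 108 and 124. Height calls were also made for region 7 in intron 1 (−0.64, adjusted p = 0.0182) and for region 19 (0.61, adjusted p = 0.025). Region 19 lay beyond the 3′ end of the gene, 97.0 kb from its 5′ end. Each of these 3 calls was lost without vector replicate 2 or MyoD-deleted replicate 1. The call of region 6 was also lost without MyoD-deleted replicate 3, that of region 7 without vector replicate 3 or MyoD-deleted replicate 2, and that of region 19 without replicate 3 of either group. The adjusted p then reached 0.137, 0.0948 and 0.122. Without centring, region 7 differed by −0.45 (adjusted p = 0.0784).

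TRDN encodes triadin, which anchors calsequestrin at the release channel. It had a single region, in intron 12 and 221 kb from the 5′ end (chr6:123415805-123416387), called in vector replicates 1 and 2 with pileups of 17 and 13 and in no other library. No region covered its 5′ end in any library. A peak list gives no value where no peak was called, so the level in the other 4 libraries is unknown.

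RYR1, the release channel of the sarcoplasmic reticulum, showed the most regions lower by height of the 10 genes, 4 of its 11 shared regions, and none higher. Of all regions, 12.8% were lower and 11.4% higher. Without centring, 2 of the 11 were lower (against 8.03% of all regions) and 1 was higher (against 24.7%). Region 6 (chr19:38433378-38435395) covered its 5′ end, with the summit in intron 1 and pileups of 248, 204 and 242 in vector and 84, 103 and 131 in MyoD-deleted libraries. The highest MyoD-deleted library stood below the lowest vector library. The height fell by 1.08 (SE 0.13, adjusted p = 1.29e-05), and the call was kept whichever library was left out.

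The rank of region 6 fell from the percentiles 64.8, 73.8 and 68.8 to 46.5, 46.9 and 59.7, without overlap but without passing the threshold (adjusted p = 0.0941). The local background fell with the pileup, from 6.79, 7.47 and 7.90 times the smallest of the library to 3.87, 4.35 and 4.70 times. With ranks of −log10 p in place of fold enrichment the same region was called lower (adjusted p = 0.000134).

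Region 8, in intron 57 (chr19:38506787-38507716), had pileups of 160, 157 and 182 against 91, 98 and 115 and fell by 0.65 (SE 0.14, adjusted p = 0.00229). Its rank differed in the other direction by 0.07 (adjusted p = 0.819), with a background of 3.79, 4.63 and 5.15 times the smallest against 2.67, 2.62 and 2.96 times. Region 7, in intron 13, and region 18, beyond the 3′ end, were lower by 0.71 (adjusted p = 0.0189) and 0.47 (adjusted p = 0.0343). Both calls were lost without centring (adjusted p = 0.0655 and 0.218) and without vector replicate 2 or 3 or MyoD-deleted replicate 1 or 2 (adjusted p up to 0.119 and 0.148).

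Fewer regions in the body of RYR1 were called in MyoD-deleted libraries, an observation made after the values were seen. Its body held 12 regions, of which 7 were called in each vector library and 5, 4 and 5 in the MyoD-deleted libraries. Over the bodies of all 10 genes, 34, 31 and 31 of 44 regions were called in vector and 28, 29 and 29 in MyoD-deleted libraries, whereas of all regions in protein-coding gene bodies 60.2% to 70.6% and 70.0% to 76.3% were called. Over the regions of RYR1 called in every library the median background was 2.99 to 3.48 times the smallest in vector and 2.05 to 2.45 times in MyoD-deleted libraries. Whether fewer tags over the whole locus or fewer at the peaks account for the lower heights cannot be told apart from these lists.

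CASQ2, the calsequestrin best known from heart and slow muscle, which buffers calcium inside the store, had raised regions upstream of its 5′ end and a lowered region in intron 1. Upstream, region 3 (chr1:115782455-115783489, 14.2 kb) had pileups of 71, 31 and 45 against 75, 92 and 90 and rose by 0.95 in height (SE 0.18, adjusted p = 0.000708). After scaling by the background of each library, every MyoD-deleted library was higher than every vector library. Region 5 (chr1:115771520-115772443, 3.13 kb) rose from the percentiles 84.8, 87.2 and 87.5 to 97.4, 98.9 and 95.3 (rank adjusted p = 0.0153; height difference 0.39, SE 0.14, adjusted p = 0.0427).

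The rank of region 3 rose as well, from percentiles of 56.5, 59.8 and 54.9 to 78.1, 84.9 and 79.8 (adjusted p = 0.017). That call was lost without vector replicate 2 or 3 or MyoD-deleted replicate 2 (adjusted p of 0.0503 to 0.0645). For region 5, the rank call was lost without vector replicate 2 (adjusted p = 0.0511), and the height call was lost without each library other than vector replicate 1 (adjusted p up to 0.146).

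Downstream of the 5′ end, region 6 in intron 1 (chr1:115764698-115765671, 3.65 kb into the gene) had pileups of 41, 26 and 45 in vector and 17, 17 and 11 in MyoD-deleted libraries. The groups did not overlap, and the height fell by 1.24 (SE 0.25, adjusted p = 0.0015), with the call kept whichever library was left out. The background in the MyoD-deleted libraries was the smallest of each library, and the percentiles were 28.9, 26.5 and 53.6 against 15.1, 12.3 and 1.93 (rank adjusted p = 0.0567). The strongest body region, in intron 5 (chr1:115727471-115728571), had pileups of 189, 123 and 153 against 109, 120 and 161 and was not called (−0.18, SE 0.13, adjusted p = 0.321).

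Beyond the 3′ end of CASQ2, region 10 (chr1:115679126-115679514), 37.3 kb from the 5′ end of VANGL1, was gained, with pileups of 28, 35 and 36. Its neighbour, region 11, was higher by 0.63 (SE 0.22, adjusted p = 0.0394), a call kept only without MyoD-deleted replicate 2 among the 6 left-out libraries (adjusted p up to 0.146).

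ATP2A1 encodes SERCA1, the calcium pump of fast muscle. No region covered the 5′ end of the gene, but 2 covered the 5′ end of another of its transcripts. The stronger of them, in intron 3 (chr16:28879682-28880852), had pileups of 440, 294 and 361 against 297, 336 and 322 and differed by −0.11 (SE 0.09, adjusted p = 0.413). Region 5 (chr16:28876939-28877595), 1.12 kb upstream, had pileups of 197, 141 and 160 against 85, 77 and 145 and fell by 0.68 (SE 0.17, adjusted p = 0.00605). The background there was 15.3 to 18.3 times the smallest of the library in all 6, and the fold enrichment was low, between 2.08 and 3.74.

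Region 8 (chr16:28910177-28911340), 32.2 kb from the 5′ end and nearer to that of another gene, was the only region of the 10 genes lower by rank. Its pileups were 31, 22 and 31 against 13, 11 and 14, and its percentiles 14.6, 19.2 and 25.2 against 4.88, 2.32 and 4.84 (adjusted p = 0.0241). The height fell by 1.07 (SE 0.23, adjusted p = 0.00206). The height call was kept whichever library was left out, whereas the rank call was lost without vector replicate 2 or 3 or MyoD-deleted replicate 1 or 2 (adjusted p up to 0.0992).

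**Figure D4:**
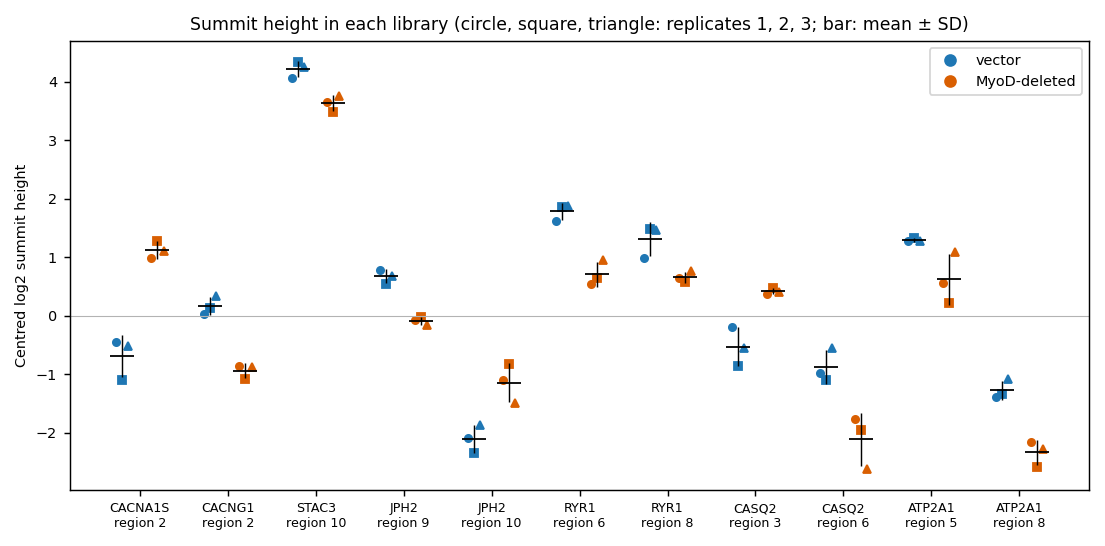
Centred log2 summit height in each library for 11 of the 13 regions whose height call was kept whichever library was left out (circle, square and triangle are replicates 1, 2 and 3; horizontal bars are means and vertical bars SD, n = 3). In each of these regions, all 3 MyoD-deleted libraries lie on one side of the 3 vector libraries. The regions were chosen by their height calls, so this separation is no further support. The 2 regions not drawn, CACNA1S region 3 and STAC3 region 2, were called higher.

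The calls by rank and by height differed at these genes. All 6 regions raised by rank were also raised by height. Of the 12 regions lowered by height, 1 was lowered by rank. Fewer calls by rank than by height were general. Of all 47885 regions, 6149 were lower by height and 2234 by rank, and 5438 were higher by height and 1973 by rank. How many of all regions had both calls is not given here. Whether the overlap of the calls is particular to these genes is therefore unknown. With ranks of −log10 p, which grow with the number of tags, 9 regions were ranked lower in place of 1 and 7 were ranked higher. The share of all regions called with these ranks is not given here. Whether these counts exceed that share is therefore unknown. Over the 5′ ends that a region covered, the height fell at RYR1 and STAC3, rose at JPH2 and was not called at CACNB1 and JPH1, and none of the 5 was called by rank. At CACNA1S, CACNG1, TRDN, CASQ2 and ATP2A1 no region covered the 5′ end.

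**Figure D5:**
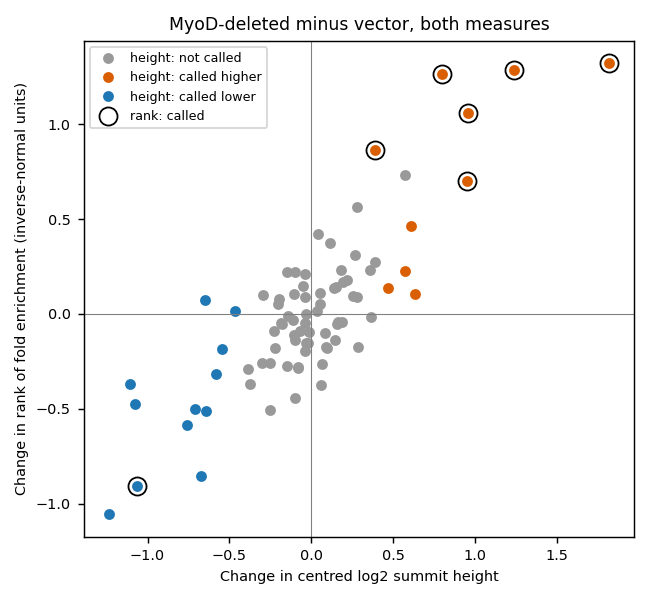
Change in the rank of fold enrichment (inverse-normal units) against the change in centred log2 height, MyoD-deleted minus vector, for the 83 regions called in every library. Orange and blue points were called higher and lower by height, and rings mark the 7 regions called by rank, of which 6 lie at the upper right and 1 at the lower left.

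Motifs within 100 bp of the summit were counted on both strands. CAGCTG occurred in 43 of the 145 regions (29.7%), against 25.1% of all regions, and CAGGTG in 23 (15.9%, against 15.9%). Of the 12 regions lowered by height, 5 held CAGCTG (41.7%), and the share among all lowered regions was 57.1%. They included CACNG1 region 2 and CASQ2 region 6, and the 5′ region of STAC3. None of the 10 raised regions held CAGCTG (15.9% of all raised regions), 4 held the TEAD motif (24.3% of all raised) and none the AP-1 motif (33.0% of all raised). Of the 3 gained regions, 2 held an AP-1 motif, as did 27.4% of all gained regions. CAGCTG and CAGGTG were each held by 1 of the 3 (13.2% and 8.08% of all gained), and the TEAD motif by 0 (24.5% of all gained). The MEF2 site and the CArG box were found in none of the 145 regions, and in 0.607% and 1.09% of all regions.

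The wider pathway was taken as 36 further genes with 514 regions, 258 of them called in every library. Of the 514, 13 were gained (2.53%, against 4.56% of all regions) and 9 were lost (1.75%, against 1.78%). By rank, 13 of 258 rose and 13 fell (5.04% each, against 4.12% and 4.67%). By height, 16 rose (6.20%, against 11.4%) and 41 fell (15.9%, against 12.8%).

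Among genes of the sarcolemma, a region 68.9 kb from the 5′ end of SCN4A, the sodium channel of skeletal muscle, rose in rank (adjusted p = 0.0272). It lay nearer to CSH1, and its percentiles were low, 0.662, 1.62 and 2.54 in vector and 9.13, 13.8 and 7.90 in MyoD-deleted libraries. Its height was not called (0.48, SE 0.21, adjusted p = 0.115). Over the 4 genes of this group, 1 of 30 shared regions rose and 1 fell by rank (3.33% each, against 4.12% and 4.67% of all regions), and 1 rose (3.33%, against 11.4%) and 3 fell (10.0%, against 12.8%) by height.

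Among genes of the T tubule and triad, 7 of 93 shared regions rose (7.53%, against 4.12% of all regions) and 4 fell (4.30%, against 4.67%) by rank, and 9 rose (9.68%, against 11.4%) and 19 fell (20.4%, against 12.8%) by height. A region in DYSF, which encodes the membrane repair protein dysferlin, rose from the percentiles 38.4, 32.2 and 43.2 to 62.9, 72.2 and 72.9 (adjusted p = 0.0157). A region 122 kb from the 5′ end of CAV3, the muscle caveolin, and nearer to OXTR, fell from 60.3, 57.3 and 53.0 to 7.24, 11.8 and 12.3 (adjusted p = 0.00329).

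Among genes of the store and of release, 3 of 94 shared regions rose (3.19%, against 4.12% of all regions) and 9 fell (9.57%, against 4.67%) by rank, and 5 rose (5.32%, against 11.4%) and 16 fell (17.0%, against 12.8%) by height. A region 23.3 kb upstream of TMEM38A, which encodes a cation channel of the store, and nearer to MED26, fell from the percentiles 93.1, 94.2 and 93.8 to 73.0, 78.1 and 76.2 (adjusted p = 0.00711). A region beyond the 3′ end of RYR2, the cardiac release channel, and nearer to ZP4, rose from 17.4, 26.7 and 20.4 to 52.1, 62.2 and 59.7 (adjusted p = 0.0101). Named after the values were seen, RYR3, a ryanodine receptor of developing muscle, had 6 of 11 shared body regions lower by height and 1 higher, and SRL, which encodes the store protein sarcalumenin, had 4 of 5 lower and none higher, against 12.6% lower and 10.9% higher of all regions in protein-coding gene bodies.

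In the uptake group, 1 of 23 shared regions rose (4.35%, against 4.12% of all regions) and none fell (against 4.67%) by rank, and none rose (against 11.4%) and 2 fell (8.70%, against 12.8%) by height. The one that rose by rank, 0.845 kb into MRLN, which encodes the SERCA inhibitor myoregulin, went from the percentiles 7.01, 7.29 and 1.72 to 35.5, 23.7 and 16.4 (adjusted p = 0.0356), while its height differed by 0.00 (SE 0.22, adjusted p = 0.996). A region inside STIM1, the calcium sensor of the store, rose from 29.7, 12.5 and 9.52 to 52.3, 65.1 and 45.4 (adjusted p = 0.0204). It was the only one of the 21 shared regions of store-operated entry called by rank (4.76%), and by height 1 rose (4.76%) and 2 fell (9.52%). Of the 53 regions of store-operated entry, 3 were gained (5.66%, against 4.56% of all regions) and 1 was lost (1.89%, against 1.78%).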

How the data were processed

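ATAC-seq was performed on 3 vector and 3 MyoD-deleted RH30 libraries, grouped by the sample labels. Per the methods, the authors used Rsubread to align to hg38, called peaks with MACS2 and compared read counts with DESeq2, and they name an exclusion list of problem regions. The deposited lists, 1 per library, give each peak a fold enrichment (a ratio to the local background), a −log10 p, a −log10 q and a score, which is not used here. No read totals or counts were at hand, so DESeq2 was not run and depth is unknown. The MACS2 version and its settings are not given in the sources used here.

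For each peak, the summit pileup and the local background were recovered by solving the Poisson formulas of −log10 p and fold enrichment for a whole-number pileup, which succeeded for 100% of peaks. One mitochondrial peak per library was left out. Overlapping peaks were merged, and a region took the strongest peak of each library. Regions called in all 6 libraries were tested with limma 3.58.1 (R 4.3.3, moderated variances with an intensity trend) on the inverse-normal rank of fold enrichment and on the centred height, without a block, and adjusted over 47885 regions. Steps were tested on simulated data. Python 3.11.15, numpy 2.4.6, scipy 1.17.1, pandas 2.3.3 and matplotlib 3.10.9 were used.

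Genes were the protein-coding genes of GENCODE version 44 (20033), with introns and exons of the canonical transcript, and positions count from 1. For each of the 10 genes, the regions named by rule were the region over the 5′ end of a transcript, the strongest body region, up to 3 regions per direction called by rank, and up to 2 gained or lost. For the wider pathway, 1 region per direction and group was named, except 1 region that is not reported here. Regions called by height alone were named after their values were seen. The genes, lists, tests and alternatives were chosen with earlier results of these data known. The split of body and other regions was added after the values were seen.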

Additional observations from a re-analysis of the deposited data

How the results depend on the processing

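Counts over the 145 regions were recomputed under each alternative. For most alternatives the share of all regions is not given here. Whether those counts moved more than the counts over all regions is therefore unknown. With a −log10 q of at least 5, lost regions went from 0 to 1 and regions ranked lower from 1 to 0. With equal numbers of peaks, 4 were lost, and with peaks covering 50% of a region, 2 were. Called in at least 2 libraries of one group and none of the other, 9 were gained and 4 lost. Ranks of −log10 p gave 9 ranked lower. Regions called in at least 2 libraries of each group gave 2 ranked lower. Without centring, 20 were higher by height (24.1%, against 24.7% of all regions). With gene bodies and 5 kb, 0 were gained, 2 ranked higher, 0 ranked lower and 3 were higher by height. For regions nearest to the 5′ end of the gene itself, the counts were 0, 3, 0 and 5, and for bodies only, added after the data were seen, 0, 1, 0 and 1. Under these alternatives 8 to 14 regions were lower by height.

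Leaving out each library in turn gave 3 to 6 gained, 0 to 3 lost, 3 to 6 ranked higher, 0 to 2 ranked lower, 5 to 10 higher by height and 8 to 16 lower by height. Such fits have fewer libraries, and the shares of all regions under them are not given here. Without vector replicate 1 there were 6 gained, 1 lost and 2 ranked lower, without vector replicate 2 there were 3 ranked higher, 0 ranked lower and 6 higher by height, and without vector replicate 3 there were 3 lost and 0 ranked lower. Without MyoD-deleted replicate 1 there were 6 gained, 1 lost, 0 ranked lower and 5 higher by height, without replicate 2 there were 5 gained, and without replicate 3 there were 2 ranked lower and 5 higher by height. The causes were not tested.

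With the replicate number as a block, 5 regions were ranked higher, 1 ranked lower, 8 higher and 13 lower by height. The same 6 of 7 rank calls and 20 of 22 height calls were kept. Over all regions, the block changed the rank calls from 4207 to 2871 and the height calls from 11587 to 10759. The rank call of JPH2 region 10 (adjusted p = 0.0762) and the height calls of CASQ2 region 5 (0.0672) and region 11 (0.0635) were lost. Libraries with the same number showed no shared deviation (correlations of −0.041, −0.098 and 0.041 by rank and −0.040, −0.203 and 0.092 by height, across regions). Between different numbers the correlations ranged from −0.121 to 0.158 by rank and from −0.232 to 0.260 by height. With 3 libraries per group, these values cannot tell whether the numbers pair the libraries.

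A sign changed only in differences that the tests had not called. By height without centring, these were CACNA1S region 8 (0.0947), CASQ2 region 7 (0.00722) and ATP2A1 region 6 (0.0795). By ranks of −log10 p, they were CACNA1S region 8 (−0.018), JPH2 region 8 (−0.0861), RYR1 region 8 (−0.29, adjusted p = 0.0295) and RYR1 region 18 (−0.22). With 1 library left out, the rank differences ranged from −0.0333 to 0.219 at RYR1 region 8, from −0.0925 to 0.118 at RYR1 region 18, from −0.225 to 0.0952 at CASQ2 region 7, from −0.00636 to 0.240 at CASQ2 region 11 and from −0.0798 to 0.0902 at ATP2A1 region 6. Among the 22 regions called by height, the values under alternatives kept their direction in 168 cases with the call and in 42 without it, and among the 7 called by rank in 50 and 15.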
